A study of Mus musculus with 6 samples.

Results

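Red pulp macrophages are the resident phagocytes of the spleen that clear aged red blood cells and recycle their iron. They depend on signals through the CSF1 receptor and on the transcription factor SpiC, and they carry F4/80 (Adgre1), VCAM1 and the integrin chain alpha-D (Itgad) at their surface. The marginal zone around the white pulp holds other macrophages, outer ones known by MARCO and SIGN-R1 (Cd209b) and inner, metallophilic ones known by CD169 (Siglec1). The 10 genes described here, Itgad, Vcam1, Csf1r, Adgre1, Cd5l, Fcna, Slpi, Siglec1, Sirpa and Cd68, are macrophage genes of the spleen found in a table of 26181 genes. They were selected on their normalised counts in CDAHFD against ND libraries, the same contrast described below, so their diet difference is given as a description with no test. Siglec1, Sirpa and Cd68 are not specific to the red pulp: Sirpa is also known from dendritic cells and Cd68 from phagocytes of many tissues. Nor are all the others specific to it: most tissue macrophages depend on Csf1r, Slpi is also known from neutrophils, and stromal cells could carry Vcam1.

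The RNA came from CD8+ T cells isolated from spleens of wild-type C57BL/6 mice that were 6 weeks old when the diets began and ate them for 7 weeks. The CDAHFD group had 3 libraries, and the ND group, whose short name the labels do not spell out, had 3. CDAHFD is the usual name of a choline-deficient, amino acid-defined, high-fat diet, and the labels call the mice so fed models of MASH (steatohepatitis). How the cells were isolated, and how pure they were, is not given in the sources used here, nor whether libraries came from separate animals. P-values therefore set a difference against library spread alone, part or all of which may be technical.

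Each library held 25314988 to 28067393 reads assigned to genes. CD8 T cell genes were abundant in every library, with Cd8a, named after its value was seen, at 27886 ± 256 normalised counts in CDAHFD libraries and 32889 ± 177 in ND libraries (SD, n = 3 each). Of 12 CD8 T cell genes 10 fell (limma, adjusted p under 0.05) and the other 2 were not called (9 to 11 lower with a library left out), with a median log2 difference of -0.35, and Trbc1, Cd5, Cd8b1 and Cd3g had the smallest adjusted p. Of all 15819 genes tested, 47.1% were called, 24.6% higher and 22.5% lower in CDAHFD libraries, and the median log2 difference over all of them was -0.01.

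Promoter windows in the RefSeq table (GRCm38.p6), from 250 bases before to 50 bases after the start site, were found for 4 of the 10 genes. They are shown because PU.1 and SpiC, ETS-family factors of macrophages, are known to bind purine-rich sites with a GGAA core. Capitals mark GAGGAA or its reverse complement TTCCTC, searched on both strands. Fcna lies at chr2:25627925-25628224 on the minus strand, Cd5l at chr3:87357631-87357930 on the plus strand, Cd68 at chr11:69666121-69666420 on the minus strand and Slpi at chr2:164356458-164356757 on the minus strand.
Fcna: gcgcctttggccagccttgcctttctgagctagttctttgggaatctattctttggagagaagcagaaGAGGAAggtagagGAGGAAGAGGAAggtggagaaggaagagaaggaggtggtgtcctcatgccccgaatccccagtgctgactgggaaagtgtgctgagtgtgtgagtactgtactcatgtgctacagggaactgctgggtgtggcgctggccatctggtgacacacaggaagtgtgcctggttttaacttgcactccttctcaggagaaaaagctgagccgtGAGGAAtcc 
Cd5l: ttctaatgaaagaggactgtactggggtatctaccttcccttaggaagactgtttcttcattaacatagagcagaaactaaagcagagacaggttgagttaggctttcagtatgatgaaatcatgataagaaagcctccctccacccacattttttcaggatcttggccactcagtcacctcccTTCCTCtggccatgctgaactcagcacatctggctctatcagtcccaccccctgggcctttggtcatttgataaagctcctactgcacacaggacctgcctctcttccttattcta 
Cd68: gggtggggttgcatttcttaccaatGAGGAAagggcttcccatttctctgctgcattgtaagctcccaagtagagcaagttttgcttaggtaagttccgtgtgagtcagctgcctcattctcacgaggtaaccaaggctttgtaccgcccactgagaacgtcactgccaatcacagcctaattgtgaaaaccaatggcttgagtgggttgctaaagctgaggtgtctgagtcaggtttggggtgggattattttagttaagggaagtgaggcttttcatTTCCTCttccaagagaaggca 
Slpi: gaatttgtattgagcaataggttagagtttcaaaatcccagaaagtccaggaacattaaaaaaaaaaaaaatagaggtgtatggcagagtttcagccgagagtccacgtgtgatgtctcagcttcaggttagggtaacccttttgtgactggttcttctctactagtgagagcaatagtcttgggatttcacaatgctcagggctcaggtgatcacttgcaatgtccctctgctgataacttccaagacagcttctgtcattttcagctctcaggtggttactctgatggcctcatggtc
The motif occurred in 3 of these 4 windows, as against 28.3% of all 32851 promoter windows of the same length. Fcna held 4 matches, of which the pair at -169 and -163 stand next to each other, Cd68 held 2 and Cd5l held 1, and Slpi held none. The Slpi window lies inside the annotated span of the gene, whose outermost start is farther upstream. The MAF half-site TGCTGAC (or GTCAGCA) stood in the Fcna window and in 4.67% of all windows, and the E-box CACGTG in the Slpi window and in 7.15% of all windows. The motifs were chosen after the sequences were seen, and the matches describe letters only.

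All 10 genes were higher in CDAHFD than in ND preparations, from 13.9-fold for Vcam1 to 2.05-fold for Siglec1, and in none of them did the libraries of the diets overlap. Together they took 0.487%, 0.452% and 0.480% of all reads in CDAHFD replicates 1 to 3, against 0.0513%, 0.0550% and 0.0523% in ND replicates 1 to 3. The exact 95% binomial intervals of these shares, which cover counting error only, ran from 0.450% to 0.489% in CDAHFD and from 0.0504% to 0.0559% in ND libraries. All 10 passed the filter on low values and all 10 were called higher, beside 24.6% of all genes tested. Over all genes tested, libraries of the diets did not overlap for 27.8% with CDAHFD higher and 26.5% with CDAHFD lower. Since the diet difference was in view when the genes were chosen, nothing is read from these counts. In bulk RNA, more cells of a type and more RNA per cell cannot be told apart.

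Vcam1 and Itgad, which encode surface proteins of red pulp macrophages, had 2 of the 3 highest ratios, beside a ratio of 6.14 for Adgre1, which encodes another. Vcam1 (ENSMUSG00000027962, protein coding, chromosome 3, 116109949 to 116129688, minus strand in mm10) encodes an adhesion molecule of the immunoglobulin superfamily. It had 50721, 43712 and 47032 normalised counts in CDAHFD replicates 1 to 3, against 3307, 3538 and 3362 in ND replicates 1 to 3. The lowest CDAHFD library was thus 12.4 times the highest ND library, and the log2 difference was 3.79 (SE 0.05). Itgad (ENSMUSG00000070369, chromosome 7, 128154376 to 128223816, plus strand) encodes the alpha-D chain that pairs with the beta-2 chain and can bind VCAM1. It had 10846, 10382 and 11230 normalised counts in CDAHFD libraries, against 912, 992 and 893 in ND libraries (log2 difference 3.54, SE 0.05). Within each diet the Itgad libraries stayed within a coefficient of variation of 3.92% in CDAHFD and 5.63% in ND.

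Csf1r and Adgre1 followed at lower ratios. Csf1r (ENSMUSG00000024621, chromosome 18, 61100598 to 61132149), the receptor tyrosine kinase for CSF1 and IL-34 on which most tissue macrophages depend, had 27501, 26027 and 27563 normalised counts in CDAHFD libraries, against 3194, 3493 and 3293 in ND libraries. Its log2 difference was 3.02 (SE 0.04), and its lowest CDAHFD value was 7.45 times the highest ND value. Adgre1 (ENSMUSG00000004730, chromosome 17, 57358691 to 57483527), which encodes F4/80, an adhesion G protein-coupled receptor, had 6505, 6019 and 6331 normalised counts in CDAHFD libraries, against 987, 1040 and 1042 in ND libraries (log2 difference 2.62, SE 0.05). ND replicate 1 was the low library for both receptors, and CDAHFD replicate 2 likewise among the CDAHFD libraries.

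The 3 genes of secreted proteins were all higher, by 7.72-fold to 12.5-fold. Slpi (ENSMUSG00000017002, chromosome 2, 164354070 to 164389095), an inhibitor of neutrophil serine proteases, had 4083, 4338 and 4171 normalised counts in CDAHFD libraries, against 348, 339 and 321 in ND libraries (log2 difference 3.64, SE 0.05). Cd5l (ENSMUSG00000015854, chromosome 3, 87357881 to 87371073) encodes AIM, a scavenger protein that macrophages release into blood. It had 8448, 7369 and 7582 normalised counts in CDAHFD libraries, against 879, 963 and 910 in ND libraries (log2 difference 3.09, SE 0.05). Fcna (ENSMUSG00000026938, chromosome 2, 25624666 to 25628030), ficolin A, is a lectin that can start the lectin pathway of complement. It had 7395, 6719 and 6987 normalised counts in CDAHFD libraries, against 908, 944 and 882 in ND libraries (log2 difference 2.95, SE 0.05). Cd5l and Fcna were highest in CDAHFD replicate 1 and ND replicate 2, whereas Slpi was highest in CDAHFD replicate 2 and ND replicate 1. Slpi is also known from neutrophils, and the 10 neutrophil genes listed summed to 11348 to 12577 normalised counts in CDAHFD libraries and 3770 to 3812 in ND libraries. Their part in the Slpi difference was not tested.

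Sirpa, Cd68 and Siglec1 had ratios of 6.83, 3.66 and 2.05, that of Siglec1 being the lowest of the 10. Sirpa (ENSMUSG00000037902, chromosome 2, 129592835 to 129632228), the inhibitory receptor for CD47, had 11944, 11680 and 11929 normalised counts in CDAHFD libraries, against 1706, 1811 and 1688 in ND libraries (log2 difference 2.77, SE 0.04). Cd68 (ENSMUSG00000018774, chromosome 11, 69664213 to 69666153), a glycoprotein of lysosomes and endosomes, had 3024, 3053 and 3298 normalised counts in CDAHFD libraries, against 846, 902 and 810 in ND libraries (log2 difference 1.87, SE 0.05). Siglec1 (ENSMUSG00000027322, chromosome 2, 131069220 to 131086765), the sialic acid-binding receptor of metallophilic macrophages, had 948, 960 and 1062 normalised counts in CDAHFD libraries, against 450, 486 and 513 in ND libraries (log2 difference 1.03, SE 0.07). The Siglec1 groups were thus apart by 1.85-fold at their nearest values, and Cd68 by 3.35-fold. Some conventional dendritic cells also use Sirpa. The 9 genes listed for such cells summed to 6323 to 7009 normalised counts in CDAHFD libraries and 8026 to 8547 in ND libraries. Of the 9, 6 were called lower and 1 higher (Esam, 4.45-fold), beside 22.5% and 24.6% of all genes tested. The sum thus does not stand for every kind of these cells. Their part in the Sirpa difference was not tested.

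Libraries of a diet agreed closely over the 10 genes. Coefficients of variation ran from 1.25% (Sirpa) to 7.44% (Vcam1) in CDAHFD libraries and from 3.02% (Adgre1) to 6.49% (Siglec1) in ND libraries, where read counting alone gives 0.458% to 3.16% and 1.71% to 5.46%. CDAHFD replicate 2 was lowest for 7 of the 10 genes, at a median of 96.1% of the group mean, and ND replicate 2 was highest for 7 of 10, at a median of 104%. These offsets were far smaller than the distance between the diets.

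**Figure D1:**
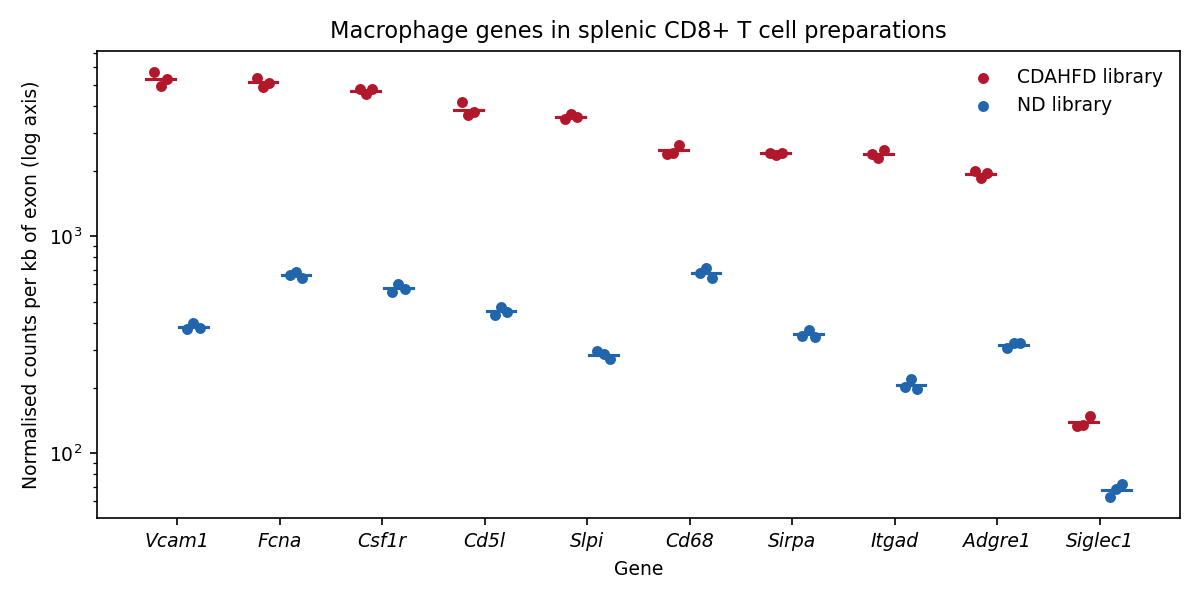
Normalised counts per kilobase of exon (log axis) of the 10 genes in each library, CDAHFD (red) left of ND (blue), with the mean of 3 libraries as a line. The groups are apart for every gene, from Vcam1 (5316 in CDAHFD and 384 in ND) to Siglec1 (139 in CDAHFD and 67.6 in ND).

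Levels can be compared between genes per kilobase of exon. In CDAHFD libraries Vcam1 was highest at 5316 ± 395 normalised counts per kilobase (SD, n = 3), and its libraries overlapped those of Fcna at 5119. Csf1r stood at 4681, Cd5l at 3831 and Slpi at 3557, the last pair overlapping. Cd68, Sirpa and Itgad lay together at 2486, 2413 and 2399, each overlapping the next, and were followed by Adgre1 at 1941 and, far below, Siglec1 at 139. In ND libraries the order differed: Cd68 was highest at 678 and overlapped Fcna at 663, then came Csf1r at 576, Cd5l at 451, Vcam1 at 384, Sirpa at 353, Adgre1 at 316, Slpi at 285, Itgad at 207 and Siglec1 at 67.6, with no other neighbours overlapping. By level per kilobase among the 15819 tested genes, Vcam1 stood at percentile 98.9 in CDAHFD libraries and 76.5 in ND libraries, and Itgad at 97.2 and 61.6. Siglec1 stood at percentile 51.3 in CDAHFD libraries and 38.9 in ND libraries.

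The make-up of the summed level of the 10 genes differed between the diets by more than the spread between libraries for several of them. As a share of the summed level per kilobase of the 10 genes, Vcam1 made up 16.7% ± 0.690 in CDAHFD libraries and 9.64% ± 0.101 in ND libraries (SD, n = 3 each). Slpi made up 11.2% in CDAHFD and 7.16% in ND libraries, and Itgad 7.53% and 5.19%. Cd68 went the other way, with 7.80% ± 0.439 in CDAHFD libraries and 17.0% ± 0.411 in ND libraries, as did Siglec1, with 0.435% and 1.70%. Csf1r made up nearly the same share, 14.7% ± 0.196 in CDAHFD libraries and 14.5% ± 0.268 in ND libraries, as did Cd5l with 12.0% and 11.3%. The level of Cd68 relative to Csf1r within a library was 0.531 ± 0.0232 in CDAHFD and 1.18 ± 0.0445 in ND libraries. These shares do not depend on how libraries are scaled to each other, but they do depend on the exon lengths used.

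**Figure D2:**
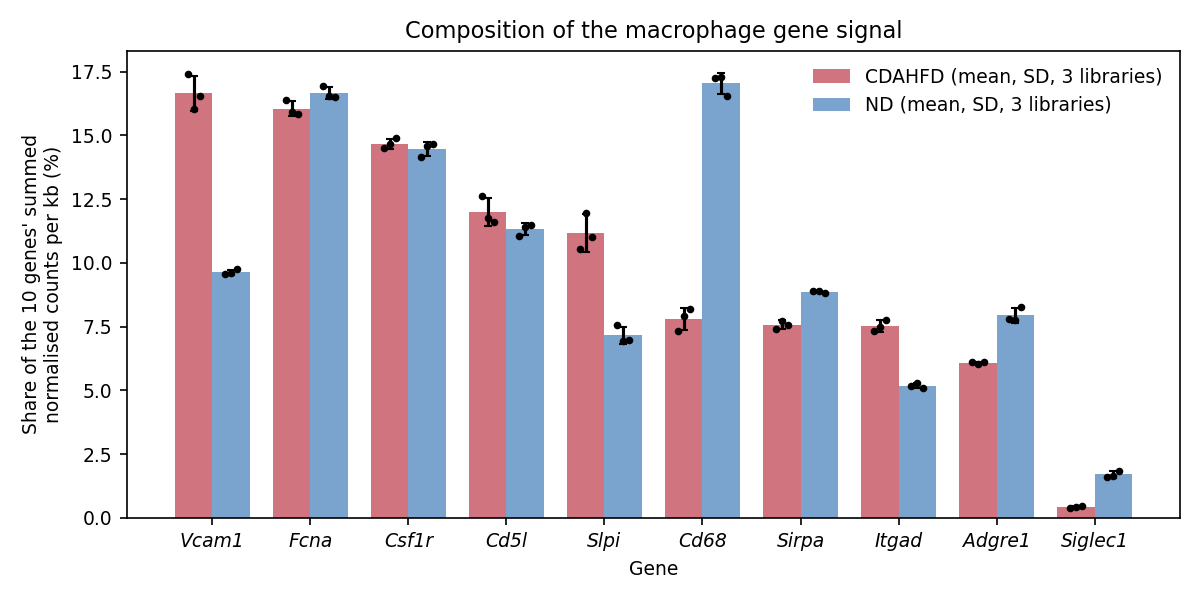
Share (%) of each gene in the summed normalised counts per kilobase of the 10 genes, as the mean with SD of 3 libraries and the libraries as points, CDAHFD (red) left of ND (blue). Vcam1, Slpi and Itgad hold larger shares in CDAHFD libraries and Cd68 and Siglec1 smaller ones, while Csf1r stays near 14.7% and 14.5%.

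Ordered by the ratio of mean normalised counts, CDAHFD over ND, the 10 genes fell into steps. Vcam1 (13.9), Slpi (12.5) and Itgad (11.6) formed the first, and each overlapped the next when the range over the 9 pairs of a CDAHFD with an ND library was taken. Cd5l (8.50), Csf1r (8.13) and Fcna (7.72) formed the second, Sirpa (6.83) and Adgre1 (6.14) the third, and the ranges of neighbouring steps did not overlap. Cd68 (3.66) and Siglec1 (2.05) stood apart from those and from each other. By log2 difference, 0.341% of all tested genes stood above Vcam1, 1.37% above Csf1r and 9.16% above Siglec1.

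Other genes of red pulp macrophages rose throughout. Of 15 such genes, all 15 were tested and all 15 rose (limma, adjusted p under 0.05), beside 24.6% of all genes tested. Their median log2 difference was 2.95, beside 2.98 for the 10 genes and -0.01 for all genes tested. This list was also chosen with earlier results of these data known, so its counts and p-values are descriptive only. Spic, the transcription factor of the lineage, averaged 3396 ± 140 normalised counts in CDAHFD libraries and 403 ± 54.9 in ND libraries (limma adjusted p = 2.66e-17). Its level per kilobase relative to Csf1r was 0.189 ± 0.00176 in CDAHFD libraries and 0.181 ± 0.0163 in ND libraries, closer than the spread of the ND libraries. The mannose receptor gene Mrc1, with 16145 ± 1124 and 1417 ± 53 normalised counts in CDAHFD and ND libraries, was 11.4-fold higher.

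Among the rest of that list, the iron exporter gene Slc40a1 was 7.71-fold higher, the haemoglobin scavenger receptor gene Cd163 6.68-fold, the phagosomal metal transporter gene Slc11a1 5.88-fold and the haem oxygenase gene Hmox1 5.87-fold. Blvrb, which encodes a biliverdin reductase, was 3.53-fold higher, and the erythropoietin receptor gene Epor 5.42-fold. Mertk and Axl, receptors for dying cells, were 9.91-fold and 8.33-fold higher. Hpgd, which degrades prostaglandins, was 7.86-fold higher, the nuclear receptor gene Pparg 4.86-fold, Paqr9 10.0-fold and the receptor gene Treml4 3.15-fold. The libraries of the diets did not overlap for any of the 15, as for 27.8% of all genes tested with CDAHFD higher.

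The marginal zone macrophage genes tested did not all move in the same direction. Of 7 listed, 5 were in the table and 4 were tested, of which 3 rose and 1 fell. Over all genes tested, 24.6% were called higher and 22.5% lower. Whether these genes mark only marginal zone cells in these libraries was not tested. The list was chosen with earlier results of these data known, so its p-values are descriptive only. Marco, the scavenger receptor of the outer marginal zone, was the extreme: it had 3358, 3174 and 3165 normalised counts in CDAHFD libraries, against 73, 86.7 and 75.4 in ND libraries. That is 41.2-fold higher (log2 difference 5.35, SE 0.08, limma adjusted p = 2.58e-28), and only 0.0443% of tested genes had a larger log2 difference. Cd209b, which encodes SIGN-R1, the other defining receptor of the same cells, had 25 reads in the 3 CDAHFD libraries together and 14 in the 3 ND libraries. Its depth-adjusted ratio was 1.77 with an exact 95% counting interval of 0.883 to 3.67, so no difference was detectable at this depth, and it fell below the filter. Marco thus rose in libraries where SIGN-R1 RNA was near the detection limit.

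Cd209d, a lectin gene of the same cluster, fell to 13.4 ± 5.81 normalised counts in CDAHFD libraries, against 47.4 ± 18.1 in ND libraries (limma adjusted p = 5.17e-05). It had only 40 reads in the CDAHFD libraries together and 141 in the ND libraries. Nr1h3, which encodes the liver X receptor needed for marginal zone macrophages, was 5.91-fold higher, and the scavenger receptor gene Msr1 2.25-fold, near the 2.05-fold of Siglec1. The ratio of Marco to Siglec1, per kilobase within a library, was 12.2 ± 1.04 in CDAHFD libraries and 0.603 ± 0.0585 in ND libraries. The median of the 4 tested genes was 1.85, which is 1.13 below that of the 10 genes on the log2 scale. With Siglec1 counted among the marginal zone genes instead, the medians were 3.02 for the other 9 genes and 1.15 for 5 marginal zone genes, a distance of 1.87. With Siglec1 left among the 10, the distance was 0.43 with a minimum mean of 50 normalised counts and 1.83 with no filter.

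**Figure D3:**
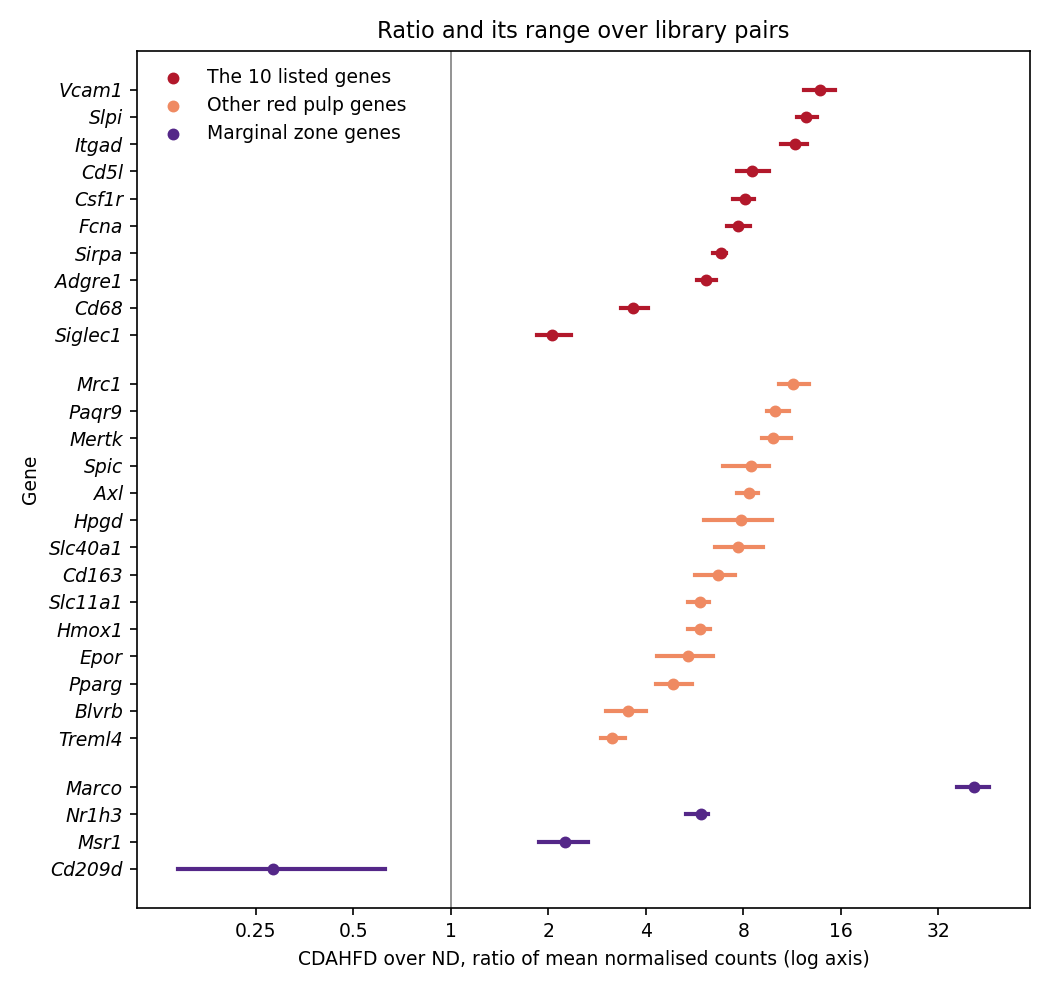
Ratio of mean normalised counts, CDAHFD over ND (log axis), for the 10 genes, 14 other red pulp genes and 4 tested marginal zone genes; bars span the 9 pairs of a CDAHFD with an ND library. All but Cd209d lie right of 1, Marco lies at 41.2, and Siglec1 (2.05) lies next to Msr1 (2.25) in size.

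Genes of the binding partners of the 10 proteins moved far less than the 10 genes. The 10 were selected on this same contrast, so nothing is read from that gap. Of 16 partner genes 12 were tested, of which 5 rose, 1 fell and 6 were not called, with a median log2 difference of 0.10. Over all genes tested, 47.1% were called in either direction. Itgb2, whose product pairs with alpha-D and with the T cell integrin chain alpha-L, averaged 19888 ± 215 normalised counts in CDAHFD libraries and 14987 ± 455 in ND libraries (1.33-fold, limma adjusted p = 3.27e-10). The level of Itgad relative to Itgb2, per kilobase, was 0.368 ± 0.0169 in CDAHFD libraries and 0.0421 ± 0.0025 in ND libraries. Itga4 and Itgb7, subunits of receptors for VCAM1, had ratios of 1.01 and 1.02 (limma adjusted p = 0.800 and 0.560), while Itgb1, the other partner of alpha-4, rose 2.00-fold. Vcam1 exceeded Itga4 3.49-fold per kilobase in CDAHFD libraries, and stood at 0.255 of it in ND libraries.

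Of the ligands of the CSF1 receptor, Csf1 was low but rose 2.90-fold, with 229 ± 10.4 normalised counts in CDAHFD libraries and 78.9 ± 3.96 in ND libraries (limma adjusted p = 5.61e-11). Il34 had 3 reads in the CDAHFD libraries together and 2 in the ND libraries. Cd47, the ligand of SIRP-alpha, averaged 8776 ± 308 and 8281 ± 127 in CDAHFD and ND libraries (limma adjusted p = 0.0818). Of the phosphatases that SIRP-alpha recruits, Ptpn11 was 1.09-fold higher, a call lost without ND replicate 2, and Ptpn6 stood at 1.05 (limma adjusted p = 0.173). Spn, which encodes CD43, a T cell ligand of Siglec-1, fell to 0.832 of the ND mean.

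Cd36, a receptor through which AIM is taken up, rose 2.57-fold. The proteases that act with ficolins had few reads: Masp1 had 4 reads in CDAHFD and 3 in ND libraries, and Masp2 had 25 and 23. Elastase (Elane), a target of SLPI, had 65 reads in the CDAHFD libraries and 45 in the ND libraries (limma adjusted p = 0.297), Prtn3 had 54 and 59, and Ctsg had 15 and 18. Fcna and Slpi were thus abundant in CDAHFD libraries in which these protease genes had at most 65 reads.

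Close relatives of the 10 genes moved in both directions. Of 23 relatives 22 were tested, of which 14 rose, 5 fell and 3 were not called, with a median log2 difference of 0.61. Over all genes tested, 24.6% were called higher and 22.5% lower, so nothing is read from the number that fell. Adgre4, a relative of F4/80 on mouse macrophages, rose 8.52-fold, and Adgre5 (CD97), which T cells also express, 1.18-fold. The integrin alpha chains encoded near Itgad on chromosome 7 had small ratios. Itgam, the chain of many monocytes and neutrophils, rose 1.54-fold at a low level, with 177 ± 21.7 and 115 ± 10.4 normalised counts in CDAHFD and ND libraries. Itgax had a ratio of 1.06 (limma adjusted p = 0.109, and called without CDAHFD replicate 2) and Itgal, the alpha-L chain, one of 1.09.

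Among the sialic acid-binding receptors, Siglece rose 10.8-fold, Siglecf 6.15-fold, with 87 and 14 reads in CDAHFD and ND libraries, and Cd33 4.83-fold, beside 2.05-fold for Siglec1. The counting interval of the Siglecf ratio was 3.47 to 11.7 (exact, 95%), and its log2 difference of 2.60 ran from 1.99 without ND replicate 1 to 3.07 without ND replicate 2. The B cell genes Cd22 and Siglecg fell to 0.822 and 0.725 of the ND mean and Siglech, of plasmacytoid dendritic cells, to 0.368. The relatives of Sirpa, Sirpb1a, Sirpb1b and Sirpb1c, rose 5.82-fold, 7.29-fold and 2.04-fold, and reads may be shared between those near-identical copies. Of the receptor kinases most like Csf1r, Flt3 and Kit fell to 0.662 and 0.780 of the ND mean, and Pdgfrb, with 66 reads in CDAHFD and 83 in ND libraries, did not pass the test (limma adjusted p = 0.326). Lamp1 and Lamp2, relatives of Cd68, rose 2.15-fold and 1.66-fold, and Wfdc17, which shares the protein fold of SLPI, 5.47-fold. Icam1, a relative of Vcam1, rose 1.47-fold, while the ficolin gene Fcnb, with 48 and 32 reads in CDAHFD and ND libraries, did not pass the test (limma adjusted p = 0.238), and Madcam1 had 2 and 1 reads.

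General macrophage genes rose as well, by less at the median. Of 16 listed 15 were tested and all 15 rose, beside 24.6% of all genes tested. Their median log2 difference was 2.17, but single genes ran from 0.18 to 3.55. The 10 genes were selected on this contrast, so nothing is read from their higher median. The complement genes C1qa, C1qb and C1qc rose 7.76-fold, 8.26-fold and 7.89-fold, as did Ctsb, a lysosomal protease, 5.91-fold. Lyz2 and Mpeg1, named after their values were seen, stood at 1.13 and 1.87 times the ND mean, the Lyz2 libraries of the diets overlapping. The call on Lyz2 (limma adjusted p = 0.0140) was lost without CDAHFD replicate 1, ND replicate 1 or ND replicate 3, and under limma without trend and robust estimation, which leaves 14 of 15. Trem2 had 19 reads in CDAHFD and 9 in ND libraries. The 5 genes whose profile over the 6 libraries lay nearest to the mean profile of the 10 genes, by Euclidean distance of centred log2 values among 10178 candidates, were Apoe, Dst, Rims3, Gfra2 and Igf1. They were 7.01-fold to 7.59-fold higher, and Apoe, the nearest, averaged 21801 ± 696 normalised counts in CDAHFD libraries and 3035 ± 149 in ND libraries. Choice by nearness to that profile, which carries the diet difference, largely sets these ratios, so nothing is read from their size.

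**Figure D4:**
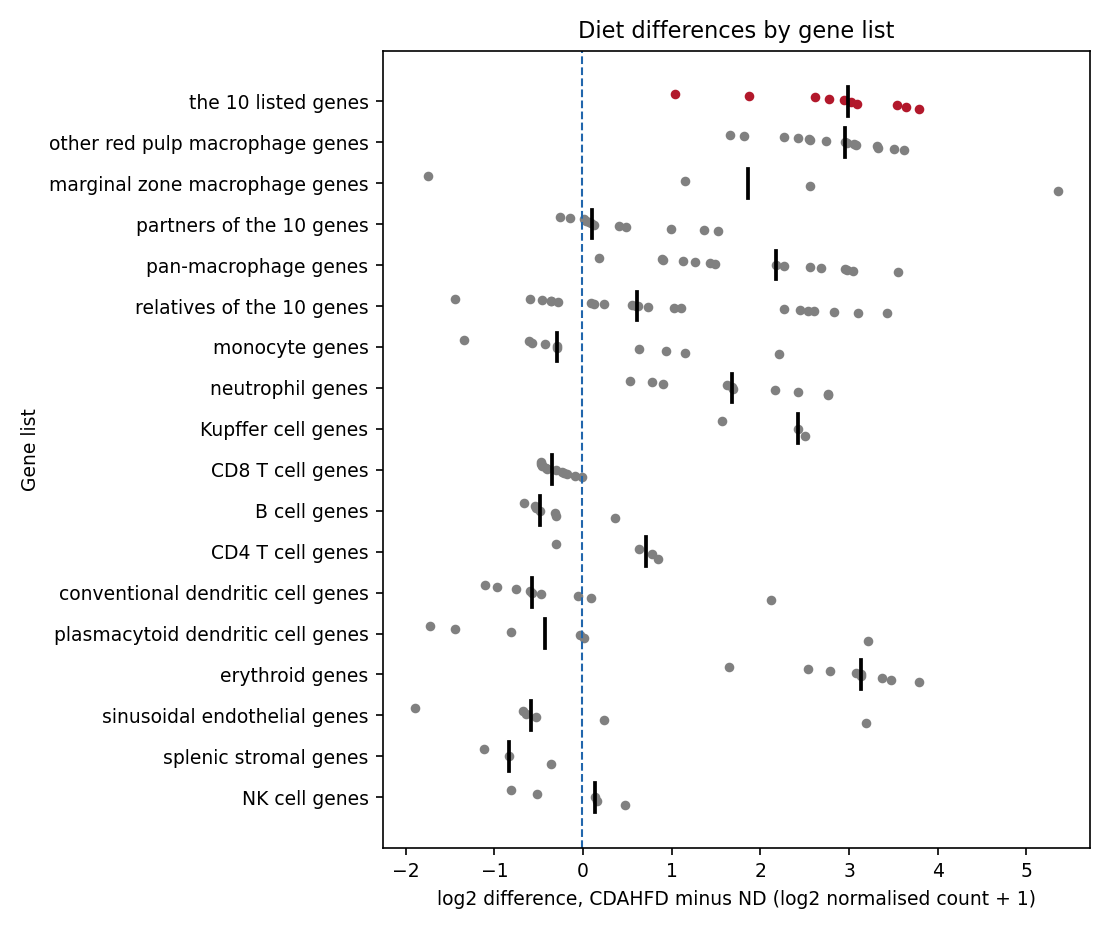
Log2 difference, CDAHFD minus ND, of each tested gene (points) by gene list, with list medians as black bars and the median of all 15819 tested genes as a dashed line. The 10 genes (red) have a median of 2.98 and other red pulp genes one of 2.95, with general macrophage genes at 2.17 and CD8 T cell genes at -0.35.

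Markers of other cells that could carry some of the 10 genes were measured in the same libraries, where 24.6% of all genes tested were called higher and 22.5% lower. Of the Kupffer cell genes Clec4f had 2.55 ± 2.39 and 4.09 ± 2.77 normalised counts in CDAHFD and ND libraries and Folr2 1.02 and 1.36, while Clec1b, Timd4 and Vsig4, the 3 tested, rose. Of stromal genes, which could accompany Vcam1, the 9 in the table summed to 66.3 to 90.9 normalised counts in CDAHFD libraries and 83.0 to 109 in ND libraries, and Sparc fell. Of 6 tested endothelial genes Stab2 and Pecam1 rose 9.12-fold and 1.17-fold, Kdr, Flt1 and Plvap fell, the last named after its value was seen, and 1 did not pass the test. The call on Plvap (limma adjusted p = 0.0317) was lost under DESeq2 and without CDAHFD replicate 1 or 3 or ND replicate 2 or 3. Erythroid genes summed to 9141 to 9457 normalised counts in CDAHFD libraries and 933 to 970 in ND libraries. The part of these cells in the results was not tested.

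Itgad shares its locus with 4 measured genes on the opposite strand, and because the strand setting of the counting is not given, reads of such pairs cannot be told apart. The protein-coding one is Cox6a2 (chromosome 7, 128205435 to 128206387), a subunit of cytochrome oxidase that lies wholly within the annotated span of Itgad and shares 70 exon bases with it. It had 474, 515 and 556 normalised counts in CDAHFD libraries, against 44.8, 61.2 and 59.4 in ND libraries. Its ratio was 9.34 (limma adjusted p = 3.35e-18), beside 11.6 for Itgad. The noncoding 4931431B13Rik, with 388 shared exon bases, had a ratio of 15.4, with 694 ± 82.1 and 45.2 ± 4.93 normalised counts in CDAHFD and ND libraries. Gm44850, with no shared exon base, had 22.3, and Gm39091, with 39 reads in CDAHFD and 4 in ND libraries, was below the filter. These 3 noncoding genes were named after their values were seen.

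Genes also overlap some of the other genes. The 3′ neighbour Hmgxb3 shares 873 exon bases with Csf1r and had 4635 reads in CDAHFD and 4743 in ND libraries, against 81968 and 9980 for Csf1r. The antisense gene of Fcna had 32 and 23 reads in CDAHFD and ND libraries, and that of Vcam1 had 22 and 5, against 142716 and 10205 reads for Vcam1 itself. Hmgxb3 and these antisense genes were named after their values were seen.

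**Figure D5:**
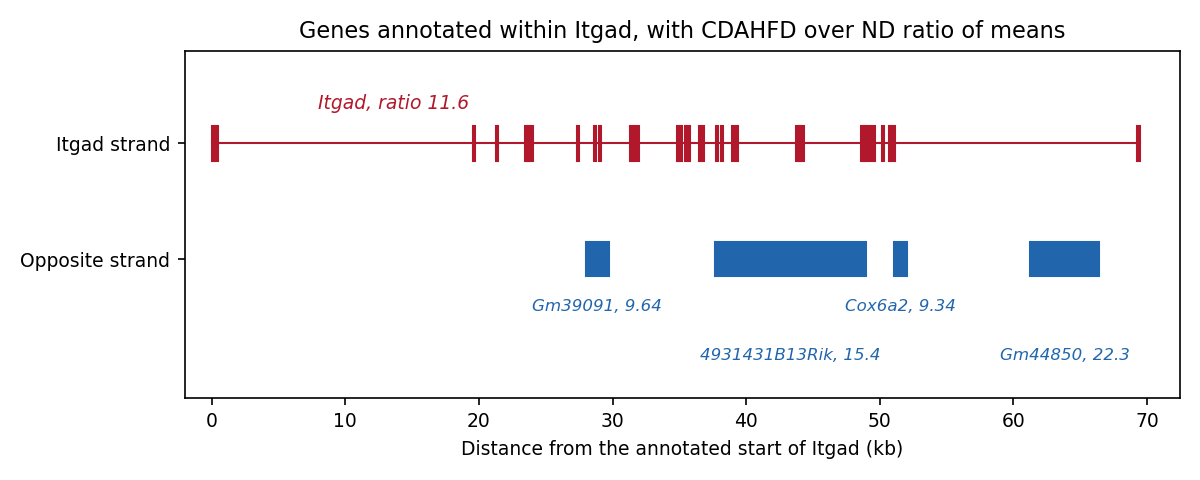
Map of Itgad in kilobases from its annotated start (exons as red blocks), with the 4 measured genes of the opposite strand as blue bars and the ratio of means, CDAHFD over ND, beside each name. All 4 have ratios of 9.34 or more, as Itgad has with 11.6.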

How the data were processed

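RNA sequencing of CD8+ T cell preparations from mouse spleen gave 6 libraries, 3 from CDAHFD mice and 3 from ND mice. The authors deposited 1 table of signal values, normalised read counts (reads per gene divided by a size factor for each library), in which columns spelled CDHFD were taken as the CDAHFD samples, the only other group. Genome build mm10 comes from the submitters' processing notes. The aligner, the counter, its strand setting and the annotation are not given in the sources used here, and the labels' protocols name 2 library kits, for whole RNA and for mRNA, and do not assign them to libraries.

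Dividing each column by its smallest value above 0 gave whole numbers for 100% of values (tolerance 0.001), so whole reads were recovered. Symbols were found for 26147 of 26181 Ensembl IDs. Exon lengths (union of annotated exons) and 1-based positions came from GENCODE mouse release M21, of the same build, and promoter windows from RefSeq (GRCm38.p6).

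The test was limma 3.58.1 in R 4.3.3 (mean-variance trend, robust estimation, diet as the only term) on log2(normalised count + 1), over the 15819 genes whose mean normalised count reached 10. P-values were adjusted by the Benjamini-Hochberg method over all of them, and a gene was called at an adjusted p under 0.05. On recovered reads, edgeR 4.0.16 called 7536 genes and DESeq2 1.42.0 called 6755, against 7449 for limma. Other alternatives changed the pseudocount, the filter, the scaling, the trend, a replicate block and each library left out. Counting Siglec1 with the marginal zone genes was added after seeing the data.

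The 10 genes, the 17 gene lists and the tests were chosen with earlier results of these data known. The diet difference of the 10 genes is therefore described without a p-value. For genes of the lists, p-values are given as a description only, for the same reason. Named were all 10, every tested gene of the lists of other red pulp genes, marginal zone genes, partners and relatives, up to 4 called genes of each other list by smallest adjusted p, and the 5 genes most alike in profile. Genes of the lists that were below the filter are named with their reads or counts, and any other gene is said to be named after its value was seen. A gene of each of 2 lists is counted there but not reported by name here.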

Additional observations from a re-analysis of the deposited data

How the results depend on the processing

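The median log2 difference of the 10 genes lay between 2.96 and 3.02 under every alternative run, and all 10 were called higher each time. The distance between that median and the marginal zone median, 1.13 on the log2 scale, rose to 1.83 with no filter, which brings Cd209b in, and fell to 0.43 with a minimum mean of 50, which takes Cd209d out. Counting Siglec1 with the marginal zone genes, an alternative chosen after seeing the data, gave 1.87. The minimum mean of 50 also left 0 marginal zone genes and 0 stromal genes called lower, with fewer genes tested. No filter gave 1 stromal gene called higher. Limma without trend and robust estimation gave 0 CD4 T cell genes lower and 0 NK cell genes higher, and the cause was not tested. With each library left out in turn, the genes called lower ranged from 0 to 1 on the CD4 T cell list, from 1 to 2 on the stromal list and from 1 to 2 on the NK cell list, and conventional dendritic cell genes called higher ranged from 1 to 2. The number of genes called over the whole table ranged from 6573 to 7537 in those fits. Libraries with the same replicate number did not deviate together, with correlations of 0.0408, -0.0508 and 0.0623. Such values cannot show whether those libraries shared an animal, a day or a batch. A fit with the replicate block called 7250 genes. Among single genes, the calls on Ptpn11, Itgal, Cd4, Eomes and Lyz2 were lost under limma without trend and robust estimation. Depth limits what can be said of genes with few reads, such as Cd209b, Il34 and the MASP proteases.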

Other observations

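Genes of other blood cells of the spleen also differed between the diets. The counts below stand beside 24.6% of all genes tested called higher and 22.5% called lower. All 9 erythroid genes tested rose with a median log2 difference of 3.13. The band 3 anion exchanger gene Slc4a1 averaged 1221 ± 18.6 normalised counts in CDAHFD libraries and 140 ± 22.9 in ND libraries (SD, n = 3 each). The globin genes Hba-a1, Hbb-bs and Hbb-bt were 10.4, 11.2 and 8.89 times as high in CDAHFD as in ND libraries, and reads may be shared between globin copies. All 10 neutrophil genes rose with a median of 1.68, led in adjusted p by the granulocyte colony-stimulating factor receptor gene Csf3r, with 3175 ± 134 and 594 ± 46.9 normalised counts in CDAHFD and ND libraries. The calprotectin genes S100a8 and S100a9 were 3.21-fold and 3.10-fold higher, and the chemokine receptor gene Cxcr2 6.84-fold higher.

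Of 10 monocyte genes 4 rose and 5 fell. Plac8 and Ly6c2, the last also known from T cells, fell to 0.395 and 0.744 of the ND mean, while Cx3cr1 stood at 1.92 times that mean. Of 7 B cell genes 6 fell, among them Pax5, Fcer2a, Ms4a1 and Cd79b, and Cr2, named after its value was seen, was 1.28-fold higher. Of 4 CD4 T cell genes Zbtb7b, Ctla4 and Foxp3 rose and Cd4 fell, the call on Cd4 being lost without ND replicate 2. Of 9 conventional dendritic cell genes 6 fell, Xcr1, Flt3 and Clec9a among them, while the adhesion gene Esam rose 4.45-fold, with 141 ± 19 and 31.8 ± 3.88 normalised counts in CDAHFD and ND libraries. Of 6 plasmacytoid dendritic cell genes, Ccr9, Siglech and Klk1 fell, and Cox6a2, which lies within Itgad, rose. Of 5 NK cell genes Eomes rose 1.11-fold, a call lost without ND replicate 2, and Gzma fell to 0.572 of the ND mean.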
